A study of Rattus norvegicus with 6 samples.

Results

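The 9 genes described here encode proteins that hold a synapse together on either side of its cleft. They are Bsn and Pclo of the presynaptic active zone, and Dlg2, Dlg4, Shank1, Shank2, Shank3, Homer1 and Nlgn2 of the postsynaptic side. All 9 are called scaffold genes here, although Nlgn2 encodes an adhesion protein. They were read by symbol from a deposited table of 23091 genes, in which each of the 9 symbols stands on a single gene identifier. The samples were cultures of wild-type (WT) rat mesenchymal stem cells from marrow, which are adherent stromal progenitors. For 7 days 3 samples received CYSP, a treatment whose name the labels do not spell out, and 3 samples named CK received the solvent DMSO, both in neural differentiation medium. The labels do not say whether the replicates are separate cultures or animals, so p-values cover only how far these samples vary, and that variation may be technical.

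At a chemical synapse the active zone is the patch of presynaptic membrane where vesicles fuse, and the very large proteins bassoon and piccolo form the meshwork that organises it. Opposite lies the postsynaptic density, built in layers. Membrane-associated guanylate kinases such as PSD-95, the product of Dlg4, hold glutamate receptors and adhesion proteins at the membrane, SAPAP proteins join them to the Shank proteins, and Shank proteins bind Homer, which reaches to metabotropic glutamate receptors and to calcium channels of the endoplasmic reticulum. Neuroligin 2, the product of Nlgn2, is the adhesion protein of inhibitory synapses and recruits gephyrin. Several of these scaffolds have close relatives outside the nervous system, where they organise junctions, muscle triads or cell polarity.

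Each sample had 15060933 to 17244700 counts in all. A gene with 0 counts could still have had up to 3, a floor of 0.182 to 0.205 CPM (CPM being counts scaled to library size by edgeR's TMM method) in CYSP samples and 0.169 to 0.188 CPM in CK samples. These limits and the intervals on count ratios below cover counting error only. Of 8 stromal markers 4 were higher and 3 lower in CYSP, with a summed level of 15965 to 17150 CPM in CYSP samples and 67156 to 69393 CPM in CK samples, most of it from Col1a1 and Col1a2. Of 10 neuron markers 3 were tested, of which Snap25 and Tubb3 were higher and Map2 lower in CYSP, with summed levels of 87.7 to 91.4 CPM in CYSP samples and 12.4 to 13.8 CPM in CK samples. Rbfox3, which encodes the neuronal nuclear antigen NeuN, and Elavl4, an RNA-binding protein of neurons, had 0 counts in all 6 samples. Of 7 macrophage and leukocyte markers 6 were lower in CYSP, with summed levels of 394 to 396 CPM in CYSP samples and 847 to 963 CPM in CK samples. Of 8 glial and Schwann cell markers 2 were tested, with S100b higher, and the summed levels were 12.6 to 13.6 CPM in CYSP samples and 7.5 to 8.03 CPM in CK samples. Aqp4 was at 0 in all samples and Sox10 at 0 in CYSP. Endothelial markers summed to 2.57 to 4.1 CPM in CYSP samples and 1.51 to 2.32 CPM in CK samples, and skeletal muscle markers to 0.0676 to 0.425 CPM in CYSP samples and 2.65 to 3.77 CPM in CK samples, with Myod1 and Ckm at 0. These calls come from the edgeR test given below, where 38.2% of all tested genes were higher and 37.8% lower in CYSP. The part of these cell types in the results below was not tested.

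Of the 9 genes, 5 were higher in CYSP, 1 was lower and 3 had too few counts to be tested. In the quasi-likelihood test of edgeR, adjusted by Benjamini-Hochberg over all 12623 genes tested, 76.1% of genes passed the threshold of 0.05, 38.2% higher and 37.8% lower in CYSP, so passing it was common and the sizes of the differences say more than the calls. The 6 genes tested had log2 fold changes between -0.69 and 5.07. The quartiles of all tested genes were -0.5 and 0.57. Bsn, Shank3, Nlgn2 and Dlg4 lay above that range, Homer1 inside it and Shank1 below it. The samples of the groups did not overlap for 5 of the 6 tested genes, 4 with CYSP above CK and 1 with CYSP below. Over all tested genes that held for 77.0%, with 38.8% above and 38.2% below.

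**Figure D1:**
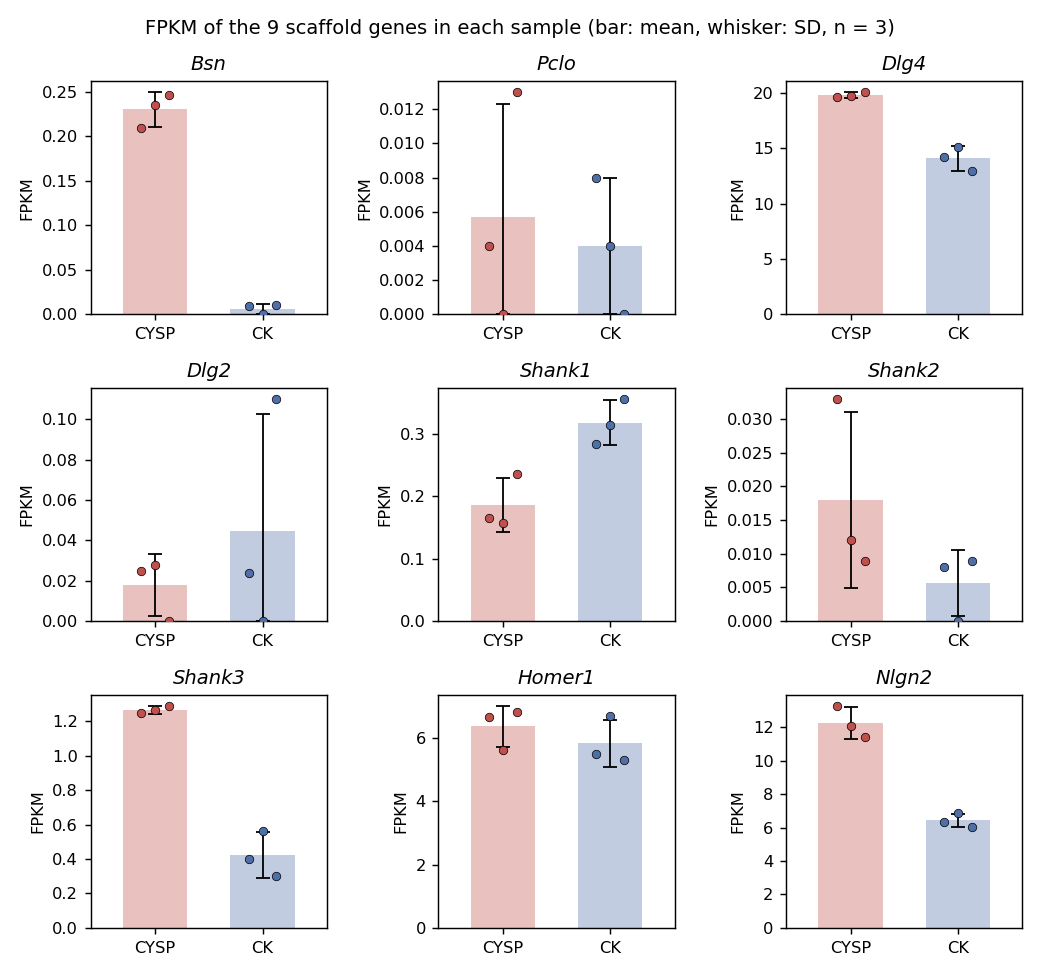
FPKM (vertical axis, a different linear scale in each panel) of the 9 scaffold genes in the 3 CYSP and 3 CK samples, with points for samples, bars for means and whiskers for the SD, cut at 0. Dlg4 reaches 20.1 FPKM and Pclo at most 0.013 FPKM, and the CYSP points lie above all CK points for Bsn, Shank3, Nlgn2 and Dlg4 and below them for Shank1.

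Levels can be set against each other per length, in FPKM, which the authors deposited. In CYSP samples the order of mean levels was Dlg4 (19.8 ± 0.232 FPKM, SD, n = 3), Nlgn2 (12.2 ± 0.946), Homer1 (6.36 ± 0.652), Shank3 (1.27 ± 0.0221), Bsn (0.23 ± 0.0194), Shank1 (0.186 ± 0.0432), Shank2 (0.018 ± 0.0131), Dlg2 (0.0177 ± 0.0154) and Pclo (0.00567 ± 0.00666). The sample ranges of Bsn and Shank1 overlapped, as did those of Shank2 and Dlg2 and of Dlg2 and Pclo, and the other neighbours were apart. In CK samples the order was Dlg4 (14.1 ± 1.09 FPKM), Nlgn2 (6.42 ± 0.413), Homer1 (5.82 ± 0.748), Shank3 (0.421 ± 0.134), Shank1 (0.318 ± 0.0362), Dlg2 (0.0447 ± 0.0578), Bsn (0.00633 ± 0.00551), Shank2 (0.00567 ± 0.00493) and Pclo (0.004 ± 0.004). There Nlgn2 overlapped Homer1, Shank3 overlapped Shank1, and the last 4 genes, all below Shank1 in every sample, each overlapped its neighbours among these 4. Bsn ranked above Shank1 and Dlg2 in CYSP and below both in CK. In CYSP samples the mean FPKM of 87.1% of the 23091 genes lay below that of Dlg4 and 45.5% below that of Bsn.

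At the active zone the 2 giant scaffolds differed. Bsn (ENSRNOG00000030714) had 44, 44 and 46 counts in the CYSP samples, against 2, 0 and 2 counts in the CK samples. The CYSP samples were close to each other and far above every CK sample, each of which was below the limit of 3 counts. Over each group that was 134 counts in CYSP and 4 in CK, a ratio of 36.6 after scaling (95% Clopper-Pearson counting interval 14 to 136). Bsn rose in CYSP with a log2 fold change of 5.07 (SE 0.52, edgeR adjusted p = 2.65e-14), and only 1.63% of tested genes had a higher one. It passed the filter on low counts through its CYSP samples alone, so a difference was built into its being tested. Its level remained low, at 2.93 ± 0.237 CPM in CYSP and 0.0779 ± 0.0676 CPM in CK. In bulk RNA, more cells that express a gene and more RNA per cell cannot be told apart, here or for the genes below.

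Pclo (ENSRNOG00000005726), the relative of bassoon, had 1, 0 and 3 counts in the CYSP samples, against 2, 1 and 0 in the CK samples. The groups overlapped and the gene was not tested. The ratio of its counts, 4 in CYSP to 3 in CK, was 1.46 with a counting interval of 0.247 to 9.95, so neither a rise nor a fall was detectable at this depth. Bsn made up 95 to 100% of the summed FPKM of the pair in the CYSP samples, and 52.9%, 0% and 100% in the CK samples, where the pair had at most 4 counts in a sample (exact two-sided permutation p = 0.4).

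The upstream sequences of this pair are shown because the genes are functional partners that the counts separate. They are the 250 bases before the RefSeq start on the rat build GRCr8, read on the gene's own strand, for Bsn at chr8:117754413-117754662 (minus strand) and for Pclo at chr4:21005112-21005361 (minus strand). Capitals mark GC boxes (GGGCGG) and E-boxes (CANNTG), both searched on both strands.
Bsn: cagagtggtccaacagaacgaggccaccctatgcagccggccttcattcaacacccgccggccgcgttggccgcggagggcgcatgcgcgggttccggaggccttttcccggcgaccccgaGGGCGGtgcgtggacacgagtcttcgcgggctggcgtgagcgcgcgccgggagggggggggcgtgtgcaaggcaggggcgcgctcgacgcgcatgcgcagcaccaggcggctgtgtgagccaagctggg
Pclo: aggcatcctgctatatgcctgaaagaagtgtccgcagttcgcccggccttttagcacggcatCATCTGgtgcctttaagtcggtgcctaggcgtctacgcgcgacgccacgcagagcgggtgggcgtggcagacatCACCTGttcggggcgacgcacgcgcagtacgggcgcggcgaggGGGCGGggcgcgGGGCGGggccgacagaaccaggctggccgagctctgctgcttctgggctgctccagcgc
Both windows were rich in G and C, with 72.8% in Bsn and 68% in Pclo, against a median of 51.2% over 33469 rat windows of the same length. They held 33 and 29 CpG dinucleotides, against a median of 5. The Bsn window had 1 GC box and the Pclo window had 2, a motif present in 30.5% of all windows. Pclo had 2 E-boxes and Bsn had none, where 65.5% of all windows hold at least 1. Neither held a TATA box (TATAAA, in 12.9% of windows), a CCAAT box (CCAAT, 34%), a full cAMP response element (TGACGTCA, 1.59%) or the core letters of a hypoxia response element (ACGTG, 16.6%).

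Among the membrane-associated guanylate kinases, Dlg4 was the most abundant of the 9 genes in both groups and rose, and Dlg2 was barely counted. Dlg4 (ENSRNOG00000018526) had 19.6, 19.8 and 20.1 FPKM in the CYSP samples, against 14.2, 15.1 and 12.9 FPKM in the CK samples. The groups did not overlap, and the CYSP samples spanned a narrower range. Scaled counts were 65.9 ± 0.519 CPM in CYSP and 44.1 ± 3.36 CPM in CK, a rise of 1.49-fold (log2 fold change 0.58, SE 0.059, edgeR adjusted p = 1.23e-14). Dlg2 (ENSRNOG00000022635), which encodes a close relative of PSD-95, had 1, 1 and 0 counts in CYSP, against 1, 0 and 5 in CK. Of its 6 CK counts 5 came from CK 3, the groups overlapped, and it was not tested.

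The relatives Dlg1 and Dlg3, which are scaffolds of many epithelial and other cell types as well as of synapses, were also counted. Dlg1 had 46.4 FPKM in CYSP and 28.5 FPKM in CK on average (log2 fold change of counts 0.76), and Dlg3 had 11.5 and 8.57 FPKM (log2 fold change of counts 0.49), both higher in CYSP. Dlg4 held 25.5 ± 1.04% of the summed Dlg1 to Dlg4 FPKM in CYSP samples and 27.5 ± 1.81% in CK samples, with overlapping ranges. Its exact two-sided permutation test gave p = 0.2, where 3 samples against 3 cannot go below 0.1. By counts the Dlg4 share was 20.8 to 22.5% in CYSP samples and 22.6 to 25.2% in CK samples, which do not overlap. The summed level of the family was 77.8 ± 2.89 FPKM in CYSP and 51.2 ± 2.03 FPKM in CK.

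Of the 3 Shank genes, which code for the scaffolds beneath the guanylate kinase layer, Shank3 rose, Shank1 was lower with a call that depends on the setting, and Shank2 was too low to test. Shank3 (ENSRNOG00000052296) had 1.25, 1.26 and 1.29 FPKM in the CYSP samples, against 0.398, 0.565 and 0.301 FPKM in the CK samples. All CYSP samples lay above all CK samples, and within CK the highest was CK 2. Shank3 rose 3.22-fold (log2 fold change 1.69, SE 0.19, edgeR adjusted p = 2.1e-12), with 378 counts over CYSP and 128 over CK, and 8.58% of tested genes had a higher fold change. Shank1 (ENSRNOG00000019207) had 21, 18 and 26 counts in the CYSP samples, against 36, 36 and 43 counts in the CK samples. The groups did not overlap, with 1.78 CPM in the highest CYSP sample (CYSP 3) and 2.03 CPM in the lowest CK sample (CK 1). Shank1 was 1.42 ± 0.307 CPM in CYSP and 2.3 ± 0.284 CPM in CK (log2 fold change -0.69, SE 0.31, edgeR adjusted p = 0.0369). This call did not hold with DESeq2 (adjusted p = 0.0961), nor in edgeR without CYSP 1 (0.108), CYSP 2 (0.112), CK 2 (0.0599) or CK 3 (0.126). The authors' deposited adjusted p for Shank1, from a test that is not stated, was 0.0591. Shank2 (ENSRNOG00000050206) had 4, 1 and 1 counts in CYSP, against 1, 0 and 1 in CK. The lowest CYSP and the highest CK samples both had 1 count, and the gene was not tested.

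The composition of the Shank family differed accordingly. Shank3 held 84 to 88.2% of the summed Shank FPKM in the CYSP samples and 45.2 to 64.3% in the CK samples. Shank1 held 10.9 to 15.4% in CYSP samples and 35.7 to 53.5% in CK samples. Neither pair of ranges overlapped, and each gave the smallest p that an exact two-sided permutation test of 3 against 3 allows, p = 0.1, which is above 0.05. By counts in place of FPKM the Shank3 share was 81.4 to 86.9% in CYSP and 39.7 to 61.7% in CK. On GRCr8 the RefSeq gene C1h19orf81 overlaps Shank1, LOC120099964 overlaps Shank2, and Acr and the opposite-strand long non-coding RNA LOC108351527 overlap Shank3. Outside this family, 11 RefSeq genes overlap Dlg2, the protein-coding LOC134483753 among them. RefSeq genes were matched to the counted genes by symbol only. Acr had 0 counts in every sample here, and the other overlapping genes were not analysed here. The sources used here do not state whether counting used strand.

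**Figure D2:**
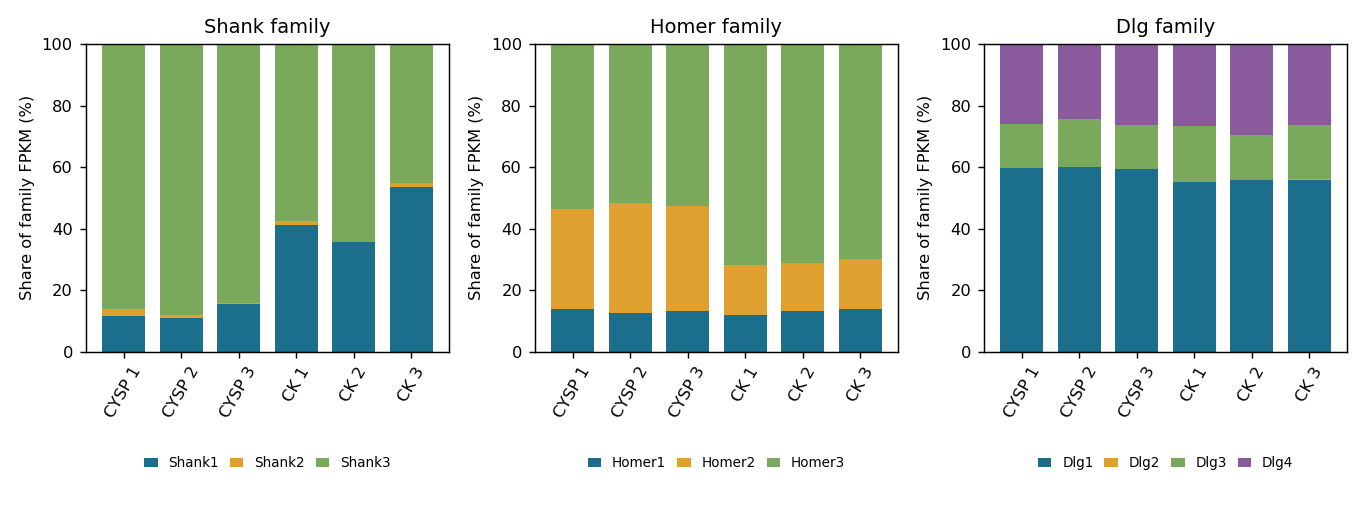
Share of each gene in the summed FPKM of its family (vertical axis, percent) in each CYSP and CK sample, for the Shank, Homer and Dlg families. Shank3 fills 84 to 88.2% of the Shank bars in CYSP and 45.2 to 64.3% in CK, the Homer2 share is larger in every CYSP sample, and the Dlg bars change least.

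Homer1 (ENSRNOG00000047014), the adaptor that links Shank to receptors and calcium stores, differed little. It had 20.4, 16.2 and 19.6 CPM in the CYSP samples, against 16.2, 16.8 and 13.4 CPM in the CK samples. The ranges overlapped, with CYSP 2 below CK 1 and CK 2. Its mean was 18.7 ± 2.26 CPM in CYSP and 15.5 ± 1.8 CPM in CK, a log2 fold change of 0.28 (SE 0.1, edgeR adjusted p = 0.0125). The call was lost with DESeq2 (adjusted p = 0.0709), with library size as the only scaling (0.0794), without CYSP 1 (0.0946) and without CK 3 (0.135). In FPKM the difference was smaller, 6.36 against 5.82 FPKM for CYSP and CK (limma-trend adjusted p = 0.325 on log2(FPKM + 1)), and the authors' deposited table gives an adjusted p of 0.458. The gene length implied by the deposited counts and FPKM varied between samples for Homer1. It ran from 2802 to 2961 bases in CYSP and from 2587 to 3039 bases in CK. For Shank3 it varied too, from 6074 to 6562 bases in CYSP and from 5974 to 6640 bases in CK. For Dlg4 it hardly varied, at 3219 to 3241 bases in CYSP and 3204 to 3229 bases in CK. The file gives no transcript level values, so the short, activity-induced form of Homer1 cannot be told apart from the long forms.

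In FPKM its relatives were more abundant in both groups. In scaled counts, which are not set per length, Homer1 averaged 15.5 CPM and Homer2 14.9 CPM in CK. Homer2 had 15.6, 16.1 and 17.5 FPKM in the CYSP samples, against 7.49, 7.7 and 6.35 FPKM in the CK samples. It rose with a log2 fold change of 1.28 (edgeR adjusted p = 3.81e-23) and no overlap. Homer3 had 25.8, 23.2 and 27 FPKM in CYSP, against 32.9, 35.5 and 26.9 FPKM in CK, with overlapping groups, and its counts did not pass the test (log2 fold change -0.05, adjusted p = 0.604). Homer1 held 13.2 ± 0.694% of the summed Homer FPKM in CYSP and 13 ± 0.959% in CK, and Homer2 34.1 ± 1.73% in CYSP and 16.1 ± 0.572% in CK. By counts the Homer1 share was 20.1 to 22.8% in CYSP samples and 24.4 to 25.1% in CK samples, so its comparison depends on the lengths behind the FPKM.

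Nlgn2 (ENSRNOG00000015430), the adhesion protein of inhibitory synapses, roughly doubled. It had 13.3, 12.1 and 11.4 FPKM in the CYSP samples, against 6.35, 6.86 and 6.05 FPKM in the CK samples. Every CYSP sample was far above every CK sample. Scaled counts were 50.6 ± 4.24 CPM in CYSP and 24.9 ± 1.6 CPM in CK, a 2.03-fold difference (log2 fold change 1.02, SE 0.071, edgeR adjusted p = 2.63e-22). Nlgn2 made up 96.7 to 98.1% of the summed FPKM of Nlgn1, Nlgn2 and Nlgn3 in CYSP samples and 93.8 to 97.3% in CK samples. Nlgn1, the form of excitatory synapses, had 4 counts over CYSP and 5 over CK and was not tested. Nlgn3, found at both kinds of synapse, had 43 counts over CYSP and 38 over CK (adjusted p = 0.513). Gphn, gephyrin, the inhibitory scaffold that binds neuroligin 2, was higher in CYSP by a log2 fold change of 0.39 (adjusted p = 0.00426), with its symbol on 2 gene identifiers.

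The upstream windows of Nlgn2 at chr10:55056579-55056828 (minus strand) and of Shank3 at chr7:122448073-122448322 (plus strand), again 250 bases of GRCr8 from RefSeq, are shown as those of the genes other than Bsn that at least doubled. Capitals mark the same motifs, and CCGCCC is the GC box on the opposite strand.
Nlgn2: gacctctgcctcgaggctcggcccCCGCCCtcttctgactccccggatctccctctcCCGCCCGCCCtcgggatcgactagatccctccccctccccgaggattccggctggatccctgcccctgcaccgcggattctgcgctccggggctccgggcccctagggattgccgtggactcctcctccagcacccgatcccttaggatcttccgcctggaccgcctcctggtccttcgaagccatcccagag
Shank3: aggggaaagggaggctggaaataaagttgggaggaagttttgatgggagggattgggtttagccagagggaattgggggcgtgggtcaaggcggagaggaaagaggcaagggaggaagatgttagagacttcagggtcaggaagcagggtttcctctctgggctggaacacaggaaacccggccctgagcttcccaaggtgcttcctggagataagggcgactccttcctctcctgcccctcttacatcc
Nlgn2 had 3 GC boxes, a pair of which overlap each other, 69.2% G and C and 20 CpG dinucleotides. Shank3 had no GC box, 2 CCAAT letters on the opposite strand, 56% G and C and 4 CpG dinucleotides. None of the 6 motifs searched was in all 3 of the windows of Bsn, Nlgn2 and Shank3. Of the 9 genes 7 had an upstream window in the RefSeq promoter table, and Shank1 and Shank2 had none there. All of these windows were matched to the counted genes by symbol only. Of these 7, Homer1 was the one with the hypoxia core ACGTG, in 2 places.

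**Figure D3:**
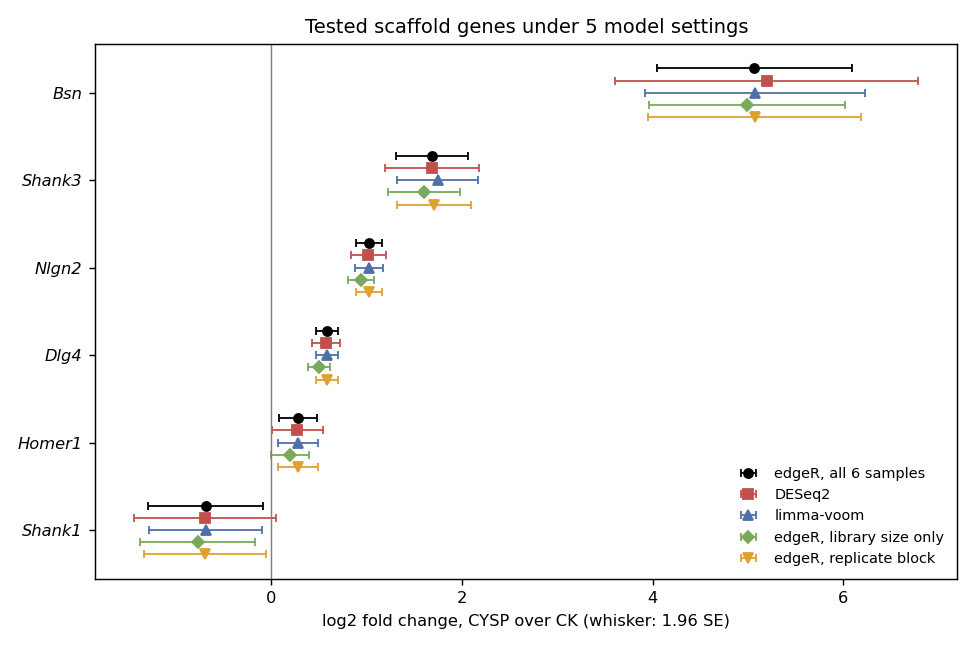
Log2 fold change, CYSP over CK (horizontal axis, whiskers approximate 95% intervals from the SE), of the 6 tested scaffold genes under 5 model settings, 1 marker shape each. Bsn, Shank3, Nlgn2 and Dlg4 stay right of 0 in all 5, while the whisker of Homer1 (0.28 by edgeR) crosses 0 with library size only and that of Shank1 (-0.69 by edgeR) with DESeq2.

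The other synaptic genes were taken from 4 lists of 83 genes, of which 82 were found and 57 tested. Of these, 31 were higher and 17 lower in CYSP, or 84.2% called, beside 76.1% of all tested genes. Their median log2 fold change was 0.5, beside 0.0046 over all tested genes. Of 20 other active zone and presynaptic scaffold genes, 12 were tested, with 6 higher and 3 lower and a median of 0.73. Lin7a and Cask, partners in a presynaptic adaptor complex, rose by log2 fold changes of 3.11 and 1.54. Lin7c, a relative of Lin7a, averaged 63.1 CPM in CYSP and 60.9 CPM in CK (log2 fold change 0.05, edgeR adjusted p = 0.392). The adaptor gene Apba1 did not pass the test either (-0.1, edgeR adjusted p = 0.715). Its relative Apba2, under the count filter, had 2 counts over CYSP and 71 over CK. Unc13b, a vesicle priming factor, had 36, 49 and 38 counts in CYSP and 2, 6 and 12 in CK (2.73). Of the 4 liprin-alpha genes Ppfia2 and Ppfia3 were higher, at 3.14 and 2.16, and Ppfia4 and Ppfia1 lower, at -2.58 and -0.45. Unc13b and Ppfia2, like Bsn, passed the filter on low counts through the CYSP samples alone. Erc1, an active zone protein that is also made in many other cell types, was lower (-0.25). Rims1 and Erc2, core active zone scaffolds of neurons, had at most 3 and 7 counts over a group and were not tested.

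Of 23 other postsynaptic scaffold genes 21 were tested, with 11 higher and 6 lower and a median of 0.39. Dlgap2 and Dlgap1 encode SAPAP proteins, the link between PSD-95 and Shank. Dlgap2 had 17.2, 12 and 14.4 CPM in the CYSP samples, against 0, 0.126 and 0.0604 CPM in the CK samples, with 673 counts over CYSP and 3 over CK, a ratio of 245 (95% counting interval 83.6 to 1193). Dlgap1 rose by a log2 fold change of 1.9, while Dlgap4, the form with the highest FPKM of the family in both groups, was lower (-0.72). Grip1, which binds AMPA receptors, had 492 counts over CYSP and 28 over CK (log2 fold change 4.25). It and Dlgap2 passed the filter on low counts through the CYSP samples alone. Baiap2, an actin regulator that binds Shank, rose by 1.83. Kalrn, Magi3 and Sipa1l1, which encode spine regulators and a scaffold also used at epithelial junctions, were lower, at -1.4, -1.07 and -1.05.

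Of 22 other synaptic adhesion genes 21 were found and 16 tested, with 11 higher and 4 lower and a median of 0.92. Placing Lrrtm4 at its lower bound, given next, cannot move that median, since the bound also lies above it. Lrrtm4, a postsynaptic adhesion protein, had no count in CK and 113 over CYSP, which against a CK floor of 3 counts over the group is at least 41.2-fold higher. Clstn3, a calsyntenin, had 351 counts over CYSP and 3 over CK, a ratio of 128 (43.4 to 623), and its relative Clstn2 had 260 counts over CYSP and 7 over CK (log2 fold change 5.27). Lrrtm4, Clstn3 and Clstn2 passed the filter on low counts through the CYSP samples alone. Adgrl2, Ptprd and Adgrl3 were lower, at -2.5, -1.85 and -1.77, Adgrl3 having passed the filter through the CK samples alone, with reads of Adgrl2 possibly split between its 2 gene identifiers, and Flrt3 was lower at -0.51.

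Of 18 genes for receptors and channels that these scaffolds hold, 8 were tested, with 3 higher and 4 lower and a median of 0.12. Grin1, the obligatory subunit of NMDA receptors, had no count in CYSP and 3 in CK, and Grin2b had none in either group. Gria1, an AMPA receptor subunit, had none in CYSP and 5 in CK. Grin2d, another NMDA receptor subunit, was lower in CYSP (1.05 ± 0.124 CPM in CYSP and 7.9 ± 0.743 CPM in CK), and Gria3 was lower by 0.45 on the log2 scale. Itpr1, the calcium channel of the endoplasmic reticulum that Homer proteins bind, had 99.1 ± 3.74 CPM in CYSP and 381 ± 24.3 CPM in CK (log2 fold change -1.94). Of the inhibitory receptor genes, Glrb rose by 1.08, and Gabra2 had a log2 fold change of 2.88 after passing the filter through the CYSP samples alone.

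**Figure D4:**
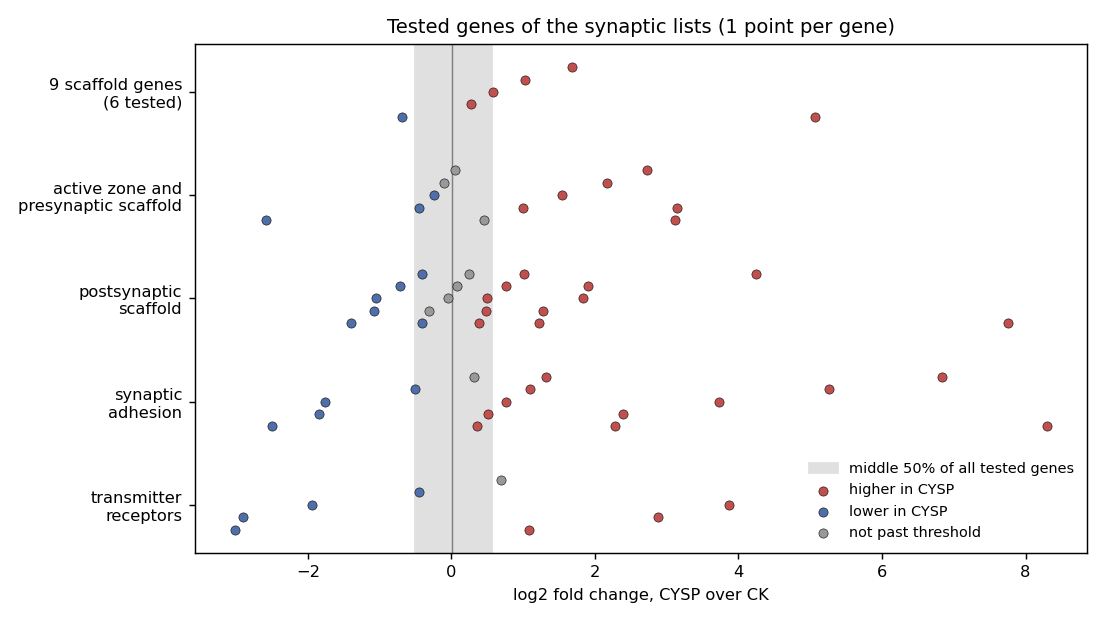
Log2 fold change, CYSP over CK (horizontal axis), of every tested gene of the 9 scaffold genes and of the 4 other synaptic lists, 1 point per gene, coloured by its call, with vertical position within a row carrying no meaning. The grey band spans the quartiles of all 12623 tested genes, from -0.5 to 0.57, and each list has genes on both sides of it.

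The deposited annotation places all 9 genes under the term synapse and 8 of them, all but Nlgn2, under postsynaptic density, Bsn and Pclo included. Of 278 genes with the term postsynaptic density 218 were tested, with 111 higher and 70 lower and a median log2 fold change of 0.17. Of 37 genes under presynaptic active zone 28 were tested, with 17 higher and 7 lower and a median of 0.48. The share called was 83% under the first term and 85.7% under the second, beside 76.1% of all tested genes.

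The genes whose pattern over the 6 samples was most like that of a scaffold gene were found by the Euclidean distance between log2 CPM values centred on each gene's mean. These values carried a prior count of 2, which shrinks differences at low counts such as those of Bsn in CK. Genes with placeholder symbols were left out. Cyp4b1 and Plag1 were nearest to Bsn, at distances of 0.396 and 0.402, with log2 fold changes of 4.18 and 3.91 beside 5.07 for Bsn. C2cd4c and Spint2 were nearest to Shank3, at 0.231 and 0.29, Cand2 and Fam117b to Nlgn2, at 0.114 and 0.116, and Pcmtd2 and Qsox1 to Dlg4, at 0.0597 and 0.0619. None of these genes is on a synaptic list used here, and no test was made of these distances.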

How the data were processed

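Samples were grouped by title. Per the labels' protocols, RNA was extracted with Trizol and enriched on oligo(dT) beads. The submitters' processing notes name fastp 0.18.0, HISAT2, StringTie 1.3.1 and RSEM with no role; the sources used here do not state the genome build, annotation release or counting strand. Per the file headers, the authors deposited raw counts and FPKM for each sample. The test behind the authors' deposited log2 fold changes and p-values is not stated.

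Counts were tested with edgeR 4.0.16 in R 4.3.3 (filterByExpr with a minimum count of 10, TMM scaling, robust quasi-likelihood fit on group, Benjamini-Hochberg adjustment over 12623 genes), a procedure tested on simulated data. SEs derive from the fold change and F statistic. FPKM were tested with limma 3.58.1. Alternatives, DESeq2 1.42.0 among them, are in the closing section. The genes and lists were chosen with earlier results of these data known. The scaffold genes are always named; from each other list, up to 4 genes per direction with the largest fold change and a mean of at least 1 CPM, of which a selection is printed, and other relatives were named after their values were seen. Lrrtm1 was not analysed here, and some genes of the lists are counted but not reported here by name.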

Additional observations from a re-analysis of the deposited data

How the results depend on the processing

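No tested scaffold gene changed direction under any setting tried. With an assumed biological coefficient of variation (BCV) of 0.2, in place of the estimated 0.0393, 3102 genes were higher and 2801 lower in CYSP, and with 0.4 the counts were 1496 and 1209, against 4828 and 4772. A required absolute log2 fold change of 1 left 1917 higher and 1598 lower. The 5 scaffold genes higher in CYSP were 3 at that fold, 2 with a BCV of 0.4 (Bsn and Shank3, while Nlgn2 and Dlg4 had adjusted p = 0.124 and 0.481), and 3 with limma-trend on log2(FPKM + 1) or log2(FPKM + 0.1), where Bsn, with a mean FPKM under 0.5, was not tested and Homer1 was not called (adjusted p = 0.325 and 0.331). The 1 lower gene, Shank1, became 0 with DESeq2, a BCV of 0.2 or 0.4, that fold, or adjusted p under 0.01, and also in the same 2 FPKM fits and with a minimum of 50 counts in 3 samples, where it was not tested. On log2(FPKM + 1) without a filter it was called (adjusted p = 0.0194), with 4 scaffold genes higher. Leaving out each sample gave 4 to 5 higher and 0 to 1 lower. Of the 31 and 17 other synaptic genes, 26 and 11 were called with a BCV of 0.2, 19 and 8 with 0.4, and 24 and 10 at that fold.

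Samples with the same replicate number did not deviate together (correlations -0.000633, 0.0185 and -0.00885), so the number marks no known pairing. With the number as a replicate block 4773 genes were higher and 4712 lower, 5 scaffold genes were higher and 0 lower (Shank1, adjusted p = 0.0548). Depth limits Pclo, Dlg2 and Shank2, with at most 5 counts in a sample. The cause of the differences between settings was not tested unless named.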

Other observations

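Among the other active zone genes, 2 under the count filter separated the groups in every sample and were picked after their values were seen. Rimbp2, which links presynaptic calcium channels to the release machinery, had 13, 19 and 8 counts in CYSP 1 to 3 and none in CK. Against a CK floor of 3 counts over the group that is 14.6-fold higher, and the 95% counting interval of the ratio starts at 11.3. Apba2, an adaptor of the Munc18 complex, had 0, 2 and 0 counts in CYSP and 31, 31 and 9 in CK, a ratio of 32.5 in favour of CK (95% counting interval 8.66 to 273).

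Rims2, an active zone scaffold that did not pass the test (log2 fold change 0.46, adjusted p = 0.0634), had 3.46 to 4.23 CPM in CYSP samples and 2.66 to 2.89 CPM in CK samples. Its FPKM had the opposite order of means, with 0.991 ± 0.151 in CYSP and 1.22 ± 0.148 in CK (SD, n = 3 each), so its direction depends on the lengths behind the FPKM.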
